A study of Mus musculus with 2 samples.

Results

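Imprinted genes are transcribed mainly from the copy inherited from 1 parent. The 49 imprinted genes examined here are a list by symbol, chosen by their known imprinting with the TPM difference between the 2 libraries in view, and 43 of them were found among the 25668 genes listed for both libraries. The other 6, H19, Kcnq1ot1, Meg3, Rian, Mirg and Airn, are non-coding RNAs and were not analysed here. Organoids of mouse fallopian tube (oviduct) epithelium, the layer of secretory and multiciliated cells that lines the tube, were compared between 2 genotypes. The control library, labelled WT, came from organoids of a mouse with a B6J.129(B6N) background and the allele Gt(ROSA)26Sortm1(CAG-cas9*,-EGFP)Fezh, which puts Cas9 and EGFP under the CAG promoter. The other library, labelled Trp53 KO, came from organoids in which Trp53, the gene of the tumour suppressor p53, was knocked out. Both carry the treatment label conditioned medium. The guide used, the number of clones, the mouse behind the knockout organoids, and the sex and age of the mice: each is not given in the sources used here. With 1 library in each group there is no replicate check and no test between genotypes, so every value below describes these 2 libraries.

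In most imprinted clusters a control region of DNA is methylated on 1 parental copy, and this mark decides which copy of the surrounding genes is transcribed. The mark is laid down in the germ line and must be copied at each cell division, for which the methyltransferase Dnmt1, its partner Uhrf1 and the zinc finger proteins Zfp57 and Zfp445 are needed. Many imprinted genes act on growth and are best known from the placenta, embryo and brain, and several are imprinted only there. Each file holds 1 value a gene, so the parental copies were not separated. The words paternally and maternally expressed below give what is known of a gene in mouse and are not measurements.

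Levels are in TPM, a transcript abundance scaled for gene length and for the library's total, and the reads behind them were estimated from the values. A gene is called measured at a mean of at least 1 TPM over both libraries, and a difference is log2(TPM + 1) in the Trp53 KO library minus that in the WT library. The estimated reads summed to 100006108 in the WT and 27678847 in the Trp53 KO library, so a low level is less well resolved in the Trp53 KO library. Trp53 itself was 83.2 TPM in the WT and 2.42 TPM in the Trp53 KO library. All 6 epithelial markers (Epcam, Cdh1, Krt8, Krt18, Krt19 and Pax8) were measured, at a summed 8443 and 13003 TPM, and the higher sum came from Krt19 at 2313 and 8176 TPM, while Krt8 and Krt18 were lower and Epcam (713 and 697 TPM) and Pax8 (44.8 and 46.0 TPM) differed least. Over all 11228 measured genes the median difference was −0.17.

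Of the 43 imprinted genes 25 were measured, and 18 lay below that filter. Of the 25, 8 were 2-fold or more lower in the Trp53 KO library, 3 2-fold or more higher and 14 neither. Among all measured genes 15.3% were lower and 8.35% higher by this measure (1715 and 937 genes), a split that quantile normalization turned to 1321 and 1292. The genes were proposed with these values known, so nothing is read from those shares. The median difference of the 25 was −0.42, and −0.44 as a log2 ratio with every value under 3 reads raised to that floor. The 8 lower members were Snrpn, Sgce, Kcnq1, Grb10, Ppp1r9a, Herc3, Cd81 and Gnas, and the 3 higher ones were Phlda2, Rasgrf1 and Ascl2. For all 11 the 95% counting interval of the TPM ratio lay wholly beyond 2-fold. The calls came from the same values, so this is no separate check. The reads of all 11 are estimates that assume the longest coding transcript, so the intervals are approximate. With a pseudocount of 5 in place of 1, however, Ppp1r9a (−0.56), Herc3 (−0.56), Ascl2 (0.81) and Rasgrf1 (0.57) no longer passed 2-fold, and Herc3 was also short of it after quantile normalization (−0.99). The counting intervals cover counting error only. In bulk RNA, fewer cells that express a gene and less of its RNA per cell cannot be told apart.

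The windows around the transcription start of the 3 lowest and the 3 highest measured members with an entry in the RefSeq promoter table are shown first. Imprints are carried as methylation of CpG dinucleotides, and the starts differ in how many they hold. Whether any of these windows lies in a control region was not examined, and methylation was not measured. Each runs from 250 bases before to 50 bases after the start, 5′ to 3′ on the gene's strand, with CpG dinucleotides in capitals. Where a gene has several windows the one with the most CpG is given. Coordinates are those of GRCm38.p6, an earlier build than that of the deposited values. The windows are Snrpn chr7:60005150-60005449 (minus strand), Grb10 chr11:12037371-12037670 (minus), Ppp1r9a chr6:4903061-4903360 (plus), Phlda2 chr7:143502475-143502774 (minus), Rasgrf1 chr9:89909525-89909824 (plus) and Ascl2 chr7:142969215-142969514 (minus).
Snrpn: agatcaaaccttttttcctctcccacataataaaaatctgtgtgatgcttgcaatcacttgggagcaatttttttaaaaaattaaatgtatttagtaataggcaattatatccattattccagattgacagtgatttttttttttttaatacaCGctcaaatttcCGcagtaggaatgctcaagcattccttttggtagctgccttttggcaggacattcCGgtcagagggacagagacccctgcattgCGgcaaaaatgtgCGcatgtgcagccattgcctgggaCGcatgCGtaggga
Grb10: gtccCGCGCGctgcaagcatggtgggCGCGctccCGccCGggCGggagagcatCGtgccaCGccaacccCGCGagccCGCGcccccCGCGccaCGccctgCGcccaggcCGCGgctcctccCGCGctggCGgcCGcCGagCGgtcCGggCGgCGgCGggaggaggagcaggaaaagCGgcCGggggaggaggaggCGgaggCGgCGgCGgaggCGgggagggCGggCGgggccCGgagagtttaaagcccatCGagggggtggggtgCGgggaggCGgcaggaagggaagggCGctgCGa
Ppp1r9a: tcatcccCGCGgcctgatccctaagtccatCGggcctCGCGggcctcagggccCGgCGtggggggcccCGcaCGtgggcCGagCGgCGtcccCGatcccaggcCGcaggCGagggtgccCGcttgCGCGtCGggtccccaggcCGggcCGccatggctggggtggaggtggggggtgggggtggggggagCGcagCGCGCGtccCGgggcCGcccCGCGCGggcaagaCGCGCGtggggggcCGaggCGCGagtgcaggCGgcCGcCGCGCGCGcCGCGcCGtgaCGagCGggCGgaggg
Phlda2: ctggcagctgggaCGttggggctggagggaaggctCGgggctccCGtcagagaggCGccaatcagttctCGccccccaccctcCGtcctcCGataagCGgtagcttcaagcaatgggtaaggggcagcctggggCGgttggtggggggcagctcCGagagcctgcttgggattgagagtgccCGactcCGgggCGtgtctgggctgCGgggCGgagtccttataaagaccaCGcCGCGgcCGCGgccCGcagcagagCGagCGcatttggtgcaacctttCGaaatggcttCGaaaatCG
Rasgrf1: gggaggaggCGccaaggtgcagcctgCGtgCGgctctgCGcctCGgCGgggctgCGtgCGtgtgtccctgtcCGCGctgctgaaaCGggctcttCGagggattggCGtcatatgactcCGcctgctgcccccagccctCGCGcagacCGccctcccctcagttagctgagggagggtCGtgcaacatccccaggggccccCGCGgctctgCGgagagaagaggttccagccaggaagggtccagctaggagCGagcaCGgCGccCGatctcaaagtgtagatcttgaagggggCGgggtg
Ascl2: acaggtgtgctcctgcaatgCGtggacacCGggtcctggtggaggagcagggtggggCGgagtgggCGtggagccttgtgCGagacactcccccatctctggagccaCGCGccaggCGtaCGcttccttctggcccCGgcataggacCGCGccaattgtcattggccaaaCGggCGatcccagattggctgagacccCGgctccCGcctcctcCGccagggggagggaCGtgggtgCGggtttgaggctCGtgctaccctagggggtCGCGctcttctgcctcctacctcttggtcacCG

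The Snrpn window, which RefSeq also gives as the start of Snurf, holds 7 CpG, the same as the median of all 32817 promoter windows. Grb10 and Ppp1r9a lie at the other end, with 45 and 48 CpG, more than 98.1% and 98.8% of all windows. The 3 higher genes lie between, with 26 CpG for Phlda2 and Rasgrf1 and 23 for Ascl2. So the members that were lower in the Trp53 KO library include both a start with a median number of CpG and CpG-dense ones. Entries were found for 35 of the 43 genes, in 51 different windows, and their median of 17 CpG compares with 7 over all windows. The motif TGCCGC, which Zfp57 binds when its CpG is methylated, was searched on both strands. It occurs in 13 of the 51 windows (25.5%) and in 11.6% of all windows, among them once each in the Snrpn and Grb10 windows shown. The motif itself holds a CpG, so its share is tied to the number of CpG in a window. Whether the shares differ apart from that was not tested. Overlapping windows of a gene, as for Mest, each count. A match is a description of the letters and not a bound site.

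**Figure D1:**
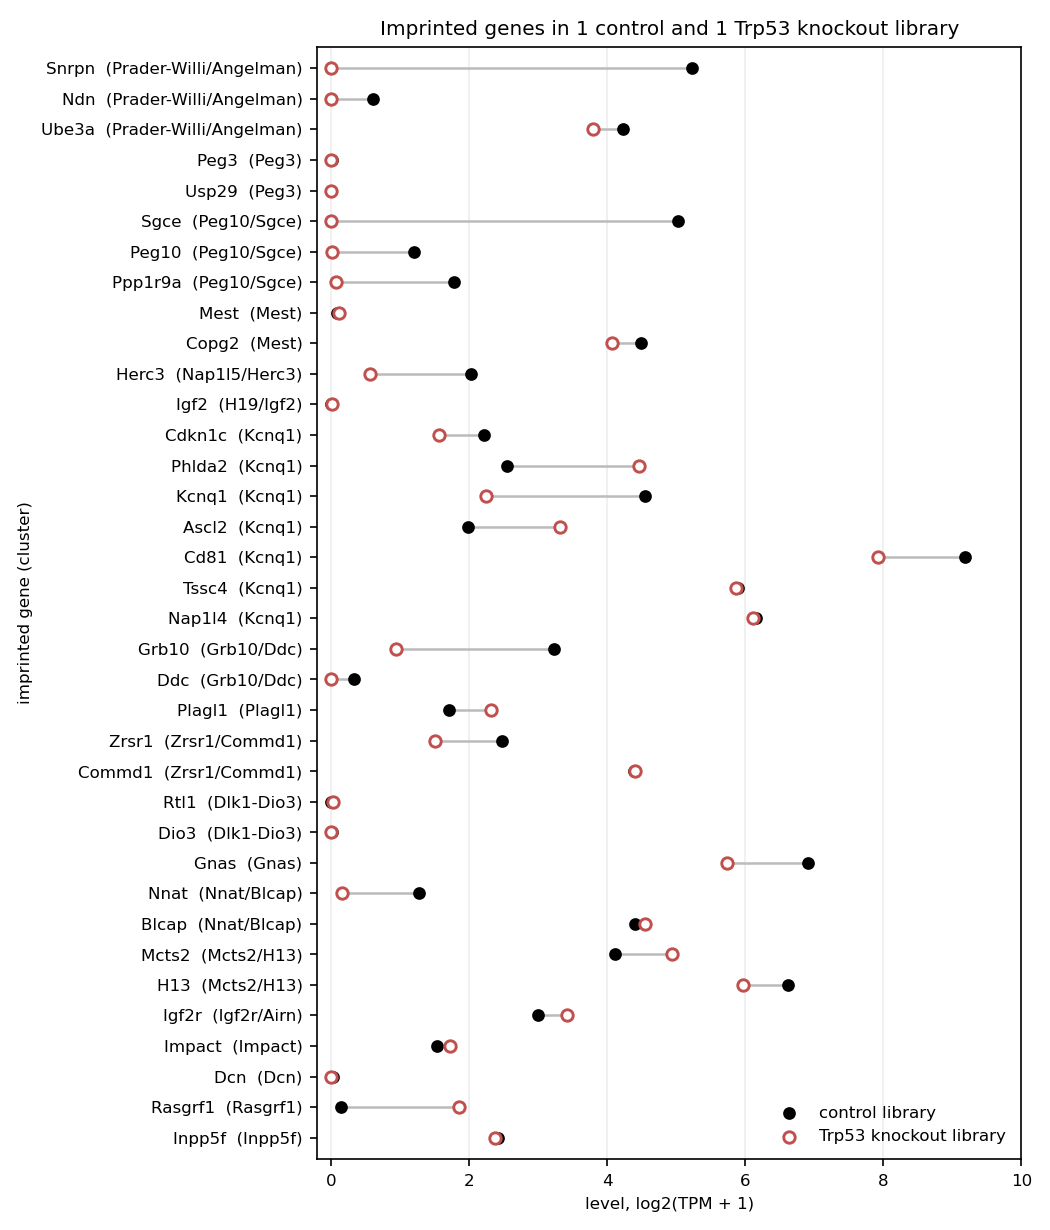
Level of each imprinted gene above 0 in at least 1 library, as log2(TPM + 1) on the horizontal axis, in the WT library (filled) and the Trp53 KO library (open), with 1 library in each group. Snrpn and Sgce stand at 36.6 and 31.6 TPM in the WT library and at 0 in the Trp53 KO library, while Phlda2, Ascl2 and Rasgrf1 are higher in the Trp53 KO library.

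The largest contrasts among the members were in a pair of paternally expressed genes. Snrpn, which encodes a spliceosome protein and marks the Prader-Willi region on chromosome 7, was 36.6 TPM in the WT library, from an estimated 4518 reads, and was listed at 0 in the Trp53 KO library. With a floor of 3 reads, the limit that a count of 0 allows, it was at least 448-fold lower. Sgce, epsilon-sarcoglycan on chromosome 6, was 31.6 TPM from an estimated 3339 reads and was also listed at 0, at least 331-fold lower. In the WT library Snrpn lay above 81.1% and Sgce above 78.9% of the genes detected there. Of 3539 genes with at least 30 TPM in the WT library, a level chosen after these values were seen, 8 (0.226%) were listed at 0 in the Trp53 KO library, and Snrpn and Sgce are 2 of the 8. From a level of 1 TPM in the WT library, 206 of 11273 genes (1.83%) were listed at 0 in the Trp53 KO library, again with Snrpn and Sgce as the 2 members among them.

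Around Snrpn, the neighbouring members differed in size. Ndn, the growth suppressor necdin, was 0.518 TPM from 114 reads in the WT library and listed at 0 in the Trp53 KO library, at least 11.3-fold lower. Ube3a, the ubiquitin ligase whose maternal copy is used in neurons, was 17.8 and 12.9 TPM, a ratio of 0.723 (95% counting interval 0.690 to 0.756). Thus both paternally expressed members with reads in the WT library were listed at 0, and the maternally expressed one was less than 2-fold lower. Of genes of the region that are not members, Mkrn3 was not at 0 in the Trp53 KO library, at 0.633 and 0.133 TPM. Peg12, with 8 reads in the WT library, was at 0 there, and both were named after their values were seen. Snurf, which shares its transcript with Snrpn, was listed at 0 in both libraries, so how reads of that transcript were split cannot be told, and the Snrpn value may stand for both. Magel2, another paternally expressed gene of the region, was listed at 0 in both libraries, which allows up to 0.0109 TPM in the WT library. The 10 nearest measured genes outside the list, 5 on each side of the cluster, had a median difference of −0.54 and ranged from −1.60 to 0.82. Of these 3 were 2-fold or more lower, and the lowest, Nipa1, was 3.21 and 0.391 TPM.

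The Peg10/Sgce cluster on chromosome 6 was low across its members in the Trp53 KO library. Peg10, a retrotransposon-derived gene needed for the placenta that starts back to back with Sgce, was 1.29 TPM from 513 reads in the WT library and 0.00848 TPM from 1 read in the Trp53 KO library. Its control to knockout ratio was 152, with a counting interval of 27.2 to 6033, but its mean of 0.651 TPM left it outside the measured genes. Ppp1r9a, the actin-binding neurabin I, which is maternally expressed in some tissues, was 2.45 and 0.0524 TPM, a control to knockout ratio of 46.7 (24.1 to 101). So the low levels here covered a maternally as well as 2 paternally expressed genes. Asb4, of an E3 ligase family, and Calcr, the calcitonin receptor, were listed at 0 in both libraries.

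Several genes around this cluster were lower as well. Of its 11 measured neighbours, 5 were 2-fold or more lower and 2 2-fold or more higher, with a median difference of −0.56. Dlx5, a homeobox factor, was 20.98 TPM in the WT and 0.119 TPM, from 3 reads, in the Trp53 KO library. Its partner Dlx6 was 4.30 TPM and then listed at 0, as was the dynein intermediate chain gene Dync1i1 from 4.45 TPM. Casd1, a sialic acid acetyltransferase, was 27.1 and 9.27 TPM, and the paraoxonase Pon3 was 15.5 and 3.56 TPM. Within the cluster Bet1, a vesicle fusion protein, was 74.2 and 50.0 TPM, less than 2-fold lower, and Pon2, next to Pon3, was 31.3 and 30.7 TPM. Of these neighbours Dlx5, Casd1, Pon3 and Pon2 are on a separate list of further imprinted genes. The neighbours are thus not all genes without known imprinting. Neighbours that are not members are named here after their values were seen. Apart from its members, chromosome 6 had a median difference of −0.27 over 516 measured genes, 102 of them 2-fold or more lower and 30 higher.

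**Figure D2:**
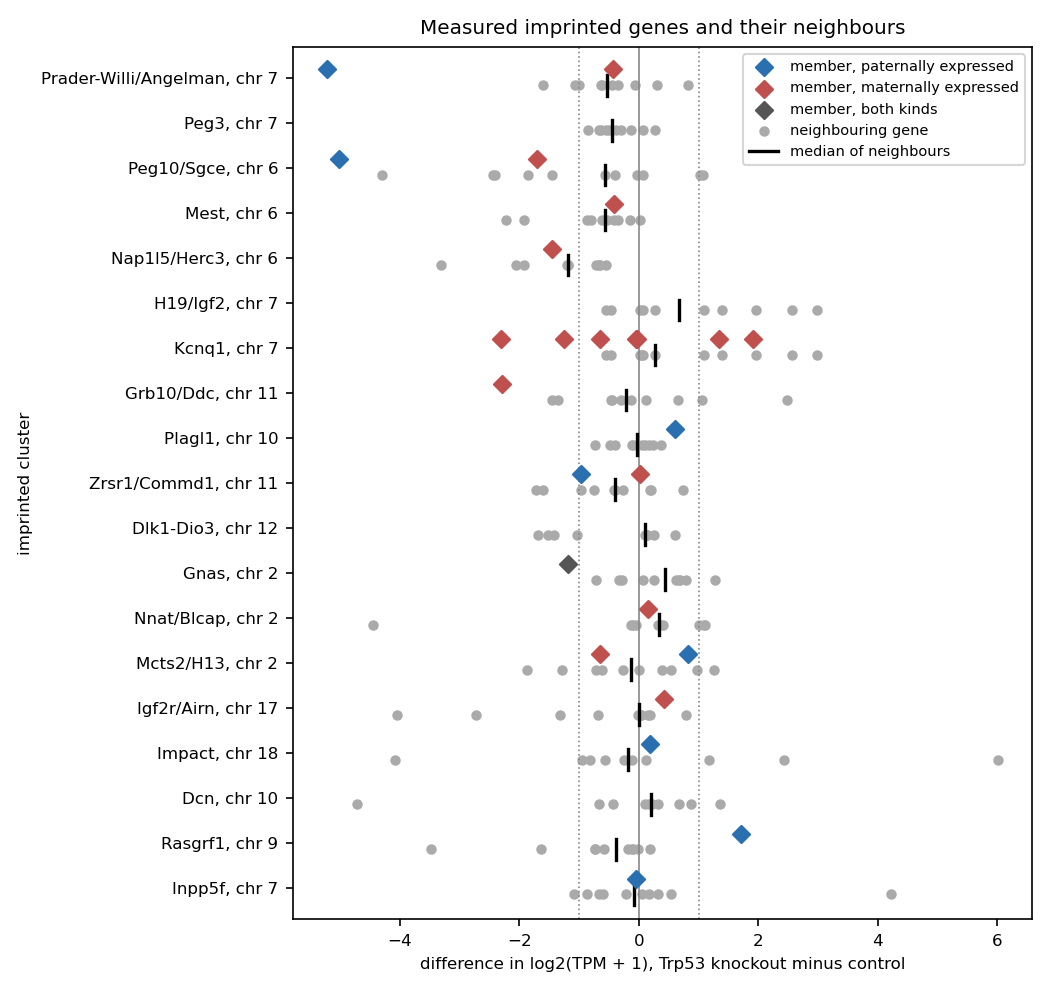
Difference in log2(TPM + 1), knockout minus control, for the measured imprinted genes of each cluster (diamonds, coloured by known parental expression) and for the nearest measured genes around them (grey points, with their median as a bar), by cluster. Sgce and Snrpn lie at −5.03 and −5.23, below every neighbour of their clusters, and the members of the Kcnq1 cluster span −2.30 to 1.91. For a gene listed at 0 in the knockout this difference depends only on its control level, so it does not rank such genes by their loss. Dlx6 and Dync1i1, neighbours of Sgce, were also listed at 0 there.

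The other clusters of chromosome 6 held genes that are low in this epithelium or that differed less. Herc3, a ubiquitin ligase, was 3.08 and 0.488 TPM, a control to knockout ratio of 6.31 (4.60 to 8.83). All 10 of its measured neighbours had a lower value in the Trp53 KO library, 6 of them at least 2-fold. Their median difference was −1.18, beside −1.46 for Herc3 itself, on the log2(TPM + 1) scale. Without a pseudocount the log2 ratio of Herc3 was −2.66. Those of the neighbours ran from −9.86 (Fam13a, with 1 read in the Trp53 KO library) to −0.61 (Lancl2). Nap1l5, which lies inside Herc3 and is paternally expressed, was listed at 0 in both libraries. Mest, a paternally expressed hydrolase-like gene often used as a mesoderm marker, was near 0 in both, at 0.0650 and 0.0842 TPM. Its neighbour Copg2, a coat protein of transport vesicles, was 21.5 and 15.8 TPM.

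In the Kcnq1 cluster of chromosome 7, members went in opposite directions. Phlda2, which limits placental growth, was 4.84 and 20.9 TPM, a ratio of 4.33 (95% counting interval 3.62 to 5.20). Ascl2, a transcription factor of placental and intestinal stem cells, was 2.97 and 9.02 TPM, a ratio of 3.04 (2.55 to 3.60). Both were higher in the Trp53 KO library. Kcnq1 itself, a potassium channel of secretory epithelia, was 22.4 and 3.74 TPM, a control to knockout ratio of 5.98 (5.18 to 6.91), and it also holds the start of a non-coding antisense RNA. Cd81, a tetraspanin and the most abundant member in both libraries, was 579 and 242 TPM, a control to knockout ratio of 2.39 (2.33 to 2.45). These 2 were lower.

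The remaining 3 members of this cluster differed less. Cdkn1c, the cyclin-dependent kinase inhibitor p57, was 3.64 and 1.97 TPM, a ratio of 0.541 (0.409 to 0.700) whose interval crosses the 2-fold mark. Tssc4 was 58.8 and 57.1 TPM and the histone chaperone gene Nap1l4 70.2 and 68.5 TPM, with counting intervals of the ratio from 0.917 to 1.03 and from 0.935 to 1.02. All 7 measured members of the cluster are maternally expressed, in the placenta or more widely, so a shared parental class went with differences from −2.30 to 1.91. Of 11 neighbours, 5 were 2-fold or more higher and 0 lower. Among them Tnfrsf23, a decoy receptor on the list of other imprinted genes, was 3.41 and 16.2 TPM. In the adjoining H19/Igf2 cluster, Igf2, the insulin-like growth factor of the embryo, was listed at 0 in the WT library and had 1 read in the Trp53 KO library.

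**Figure D3:**
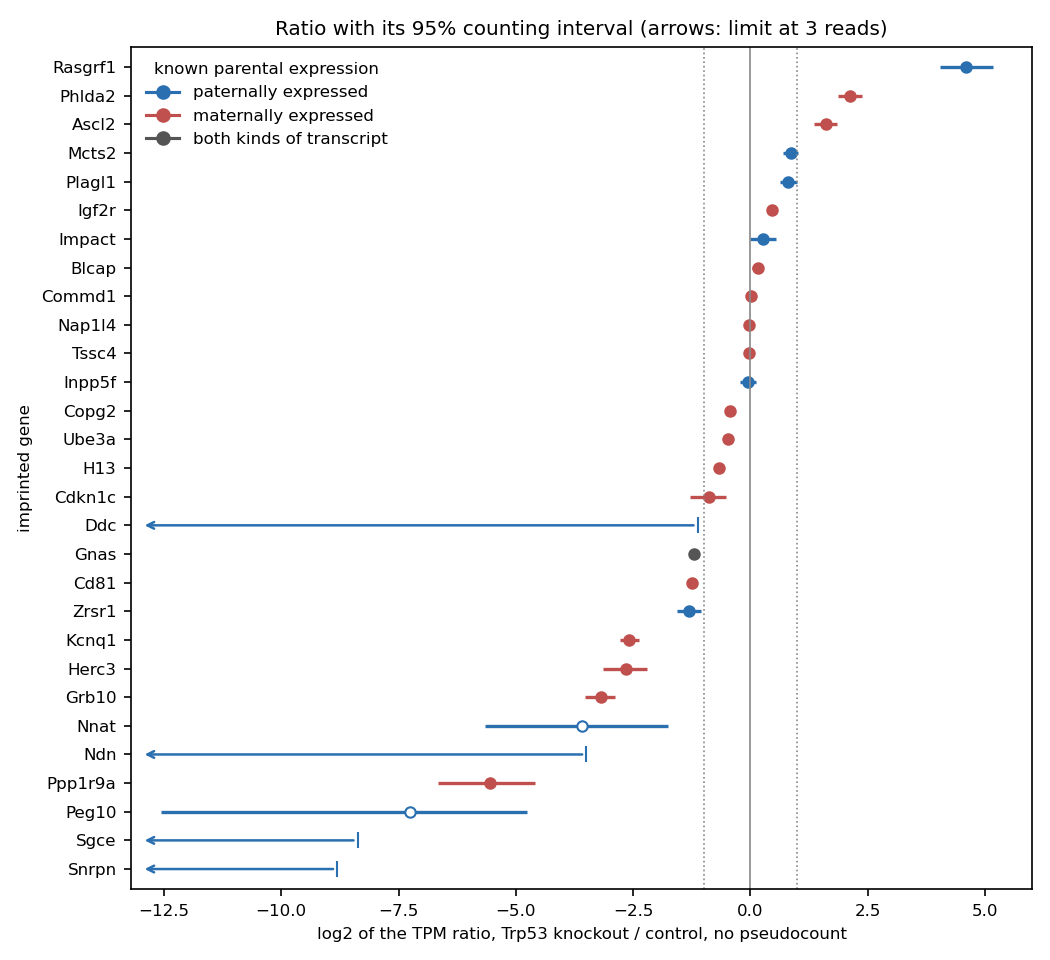
Log2 of the TPM ratio, knockout over control, without a pseudocount, with its 95% counting interval, for the measured imprinted genes (filled) and for Peg10, Nnat, Ndn and Ddc, which lie below the filter (open, or arrow alone), coloured by known parental expression. For genes with 0 reads in the Trp53 KO library an arrow starts at the ratio that 3 reads would give, dotted lines mark 2-fold, and the arrows of Snrpn (448-fold) and Sgce (331-fold) start farthest left.

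Of the measured imprinted genes on chromosomes other than 6 and 7, Grb10 and Rasgrf1, both regulators of signalling, had the largest differences in log2(TPM + 1). Grb10, an adaptor that restrains the insulin and insulin-like growth factor receptors, was 8.42 and 0.921 TPM, a control to knockout ratio of 9.14 (7.38 to 11.6). Next to it Ddc, the enzyme of dopamine and serotonin synthesis, was 0.257 TPM from 22 reads and then listed at 0, too few reads for a firm fold. The 10 neighbours of that cluster had a median difference of −0.22, from −1.46 to 2.49, all above the −2.29 of Grb10. Rasgrf1, an exchange factor that activates Ras and is imprinted in brain, was 0.109 TPM from an estimated 31 reads in the WT and 2.61 TPM from 220 reads in the Trp53 KO library. Its ratio was 24.0 (16.3 to 36.0), and its difference of 1.70 lay above all 10 neighbours, the highest of which stood at 0.18.

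On chromosome 2, whose other genes had a median difference of 0.20, imprinted genes split within clusters. Gnas, the stimulatory G protein alpha subunit, from a locus with maternally, paternally and biparentally expressed transcripts, was 120 and 52.1 TPM, a control to knockout ratio of 2.29 (2.22 to 2.37). Its 10 neighbours had a median difference of 0.44, and none was as low as the −1.18 of Gnas. Nnat, the small membrane protein neuronatin, was 1.43 TPM and, from 3 reads, 0.118 TPM, a control to knockout ratio of 12.1 (3.39 to 50.3), with a mean below the filter. It lies within Blcap, which was 20.2 and 22.4 TPM. Mcts2, a translation factor gene inserted into H13, was 16.3 and 29.6 TPM, a ratio of 1.81 (1.62 to 2.02), while its host H13, a signal peptide peptidase, was 97.5 and 61.5 TPM, a ratio of 0.630 (0.613 to 0.649). The paternally expressed Mcts2 was thus higher and the maternally expressed host lower in the Trp53 KO library. Where a gene lies within another, reads of the pair may have been split by the counting, whose strand setting is not given in the sources used here.

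Further paternally expressed genes were present in both libraries. Plagl1, a zinc finger factor that arrests growth, was 2.27 and 3.97 TPM, a ratio of 1.75 (1.54 to 1.99). Impact, an inhibitor of the stress kinase Gcn2, was 1.91 and 2.31 TPM, with an interval from 0.998 to 1.46 that includes no difference. Inpp5f, a phosphoinositide phosphatase known to be imprinted only in some tissues, was 4.34 and 4.18 TPM (0.853 to 1.09). Zrsr1, a splicing factor gene inserted into Commd1, was 4.56 and 1.85 TPM, a ratio of 0.406 (0.340 to 0.482). On the log2(TPM + 1) scale its difference of −0.96 was just short of 2-fold. Its host Commd1, a copper and NF-kB regulator that is maternally expressed in some tissues, was 19.98 and 20.28 TPM. Igf2r, the receptor that clears Igf2 and is maternally expressed, was 7.004 and 9.695 TPM, a ratio of 1.38 (1.30 to 1.47).

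By known parental expression the 22 paternally expressed genes in the files included 8 that were measured, of which 2 were lower and 1 higher. Their median difference was 0.07, with a range from −5.23 to 1.70. Of 20 maternally expressed genes 16 were measured, 5 lower and 2 higher, with a median of −0.43 and a range from −2.30 to 1.91. Among all measured genes 15.3% were 2-fold or more lower and 8.35% higher. Of the measured genes, 2 paternally and 11 maternally expressed ones are known to be imprinted only in a restricted set of tissues. Among those imprinted more broadly the median was −0.39 over 6 paternally and −0.64 over 5 maternally expressed genes. The sign of the paternal median is not stable: it was −0.04 without the members on chromosome 2 and −5.03 at a mean of at least 5 TPM. With no filter on low values and without the highest genes it was also below 0. In the Trp53 KO library 8 genes were listed at 0 that had reads in the WT library, 7 of them paternally expressed (Snrpn, Sgce, Ndn, Ddc, Peg3, Usp29 and Dio3) and 1 maternally expressed (Dcn). Of these, Peg3, Usp29, Dio3 and Dcn had an estimated 4 reads or fewer in the WT library, so a 0 in the shallower library says little about them. In the WT library 9 of the 43 genes were already listed at 0, 6 of the 22 paternally and 3 of the 20 maternally expressed ones. Below the filter lay 14 paternally and 4 maternally expressed genes, so low levels were more frequent among the paternally expressed ones. Over all genes, 15.3% of those above 0 in the WT library were listed at 0 in the Trp53 KO library.

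Several well-known imprinted genes were at or near 0 in both libraries. Peg3, a zinc finger gene, was 0.00740 TPM in the WT library and listed at 0 in the Trp53 KO library, and its partner Usp29 was 0.00206 TPM and 0. Zim1 of the same cluster and Dlk1, a Notch-like ligand, were listed at 0 in both. Rtl1, a retrotransposon-derived placental gene, had 2 reads in the Trp53 KO library alone, and Dio3, which inactivates thyroid hormone, had 1 read in the WT library alone. Dcn, the stromal proteoglycan decorin, was 0.0240 TPM in the WT and listed at 0 in the Trp53 KO library. No difference between the libraries can be resolved for these genes at this depth.

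Markers of other cell types were mostly below 1 TPM, except for a few single genes. Of 11 stromal markers 10 lay below 1 TPM, with Col1a1, Col1a2, Col3a1, Pdgfra and Thy1 at or near 0, and the summed level was 3.70 TPM in the WT and 67.3 TPM in the Trp53 KO library, nearly all of it from Fbln1 at 3.24 and 67.2 TPM. Of 6 neural markers only Tubb3 was measured, at 3.08 and 0.514 TPM, and the sums were 3.44 and 0.536 TPM, with Rbfox3 at 0 in both and Snap25 near 0. Of 5 muscle markers Acta2 was measured, at 1.07 and 17.8 TPM, and the sums were 1.623 and 18.01 TPM. The immune markers summed to 34.4 and 16.4 TPM, from Cd68 (25.50 and 15.97 TPM) and Csf1r (8.78 and 0.420 TPM), with Cd3e and Cd79a at 0 in both. The 5 endothelial markers summed to under 0.1 TPM in each library. Tubb3 and Csf1r were lower in the Trp53 KO library together with Snrpn, Sgce and Grb10, and Fbln1 and Acta2 were higher there together with Phlda2, Rasgrf1 and Ascl2. Fbln1 and Acta2 were the only measured genes of their lists, and below the filter others went the other way. Vim, of the stromal list, was 0.379 and 0.127 TPM, and Tagln, of the muscle list, 0.538 and 0.174 TPM. Postn, near 0, was 0.0153 and 0.0172 TPM. The part of these markers in the differences of the imprinted genes was not tested.

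Of 24 genes that keep imprints 22 were measured, of which 1 was 2-fold or more higher and 2 were lower, with a median difference of −0.05. Over all measured genes 23.6% passed 2-fold in either direction. Zfp57, the zinc finger protein that recognises methylated imprint control regions, was 4.63 TPM from 715 reads in the WT and 0.675 TPM from 31 reads in the Trp53 KO library, a ratio interval of 0.0984 to 0.209. Zfp202, a related zinc finger gene, was 2.11 and 0.481 TPM (0.149 to 0.328). Both were lower, whereas Zfp445, which shares the task of Zfp57, was 9.12 and 6.17 TPM, and their corepressor Trim28 was 160 and 158 TPM. Uhrf1, which guides Dnmt1 to newly copied DNA, was 15.99 and 34.40 TPM (2.04 to 2.27), and Ezh2, the methyltransferase of Polycomb complex 2, was 24.4 and 47.2 TPM. Dnmt1 was 10.2 and 15.8 TPM. Zfp445, Trim28 and Dnmt1 were singled out for their role, after their values were seen. Whether Zfp57 levels bear on Snrpn or Sgce was not tested.

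**Figure D4:**
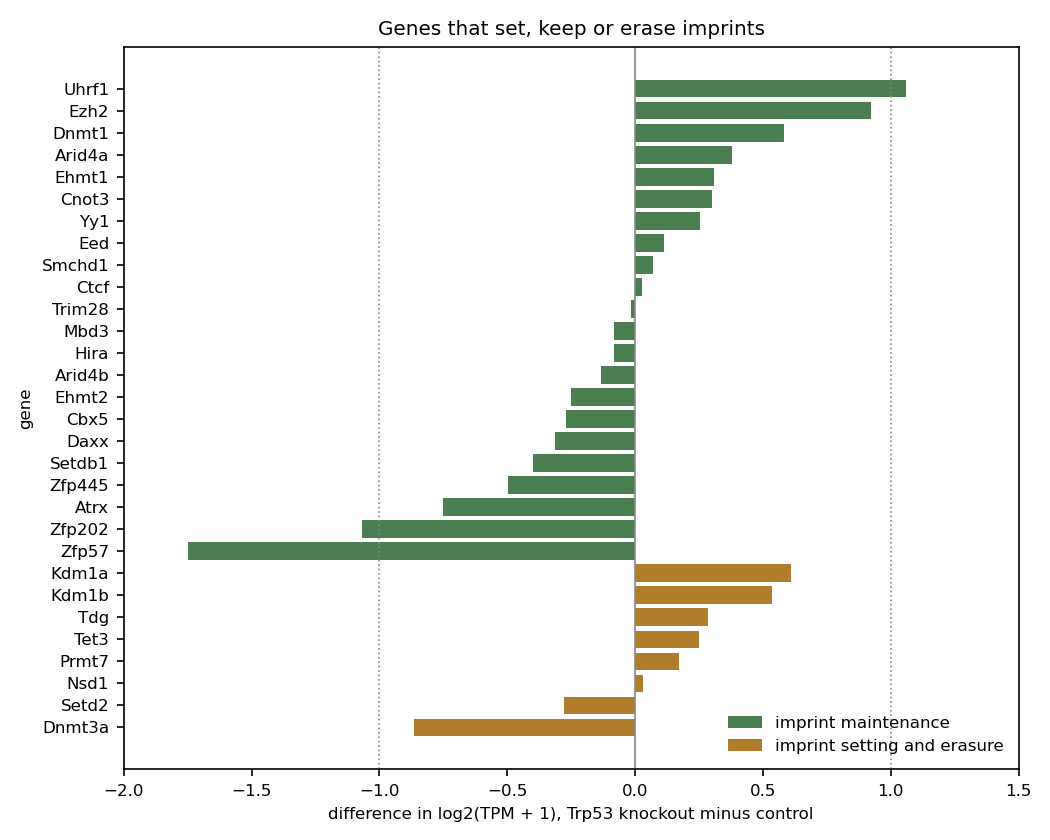
Difference in log2(TPM + 1), knockout minus control, for the measured genes that keep imprints (green) and that set or erase them (brown), as bars from 0, with dotted lines at 2-fold. Zfp57 (−1.75) and Zfp202 (−1.07) lie beyond 2-fold on the lower side and Uhrf1 (1.06) on the higher side.

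Of 14 genes that set or erase imprints 8 were measured, with a median difference of 0.21, and 0 of the 8 passed 2-fold on the log2(TPM + 1) scale. Dnmt3a, the de novo methyltransferase, was 3.04 and 1.22 TPM, a difference of −0.86 on that scale, though the counting interval of its control to knockout ratio, 2.16 to 2.89, lay beyond 2-fold. Below the filter Tet1, a demethylating enzyme named after its values were seen, had 61 reads in the WT library and 0 in the Trp53 KO library. Of the same list, the Dnmt3a germ line cofactor Dnmt3l, named after its value was seen, was listed at 0 in both libraries. The histone demethylases Kdm1a and Kdm1b were 22.5 and 3.43 TPM in the WT and 34.9 and 5.41 TPM in the Trp53 KO library, and the repair glycosylase Tdg was 28.5 and 35.0 TPM.

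Imprinted genes outside the 49 and the growth pathway that many of them act on differed in both directions as well. Of 45 further imprinted genes 38 were in the files and 17 measured, 4 2-fold or more higher and 4 lower, with a median difference of −0.09. Besides Dlx5, Pon3 and Tnfrsf23 above, Axl, a receptor tyrosine kinase, was among the most different, at 0.898 and 5.08 TPM. A pair of genes of the Prader-Willi region, named after their values were seen, had few reads: Mkrn3 was 0.633 and 0.133 TPM, and Peg12 had 8 reads in the WT library and 0 in the Trp53 KO library. Of 16 growth pathway genes 9 were measured, 1 higher and 3 lower. Beside these counts, 8.35% of all measured genes were 2-fold or more higher and 15.3% lower. Igfbp4, which holds back insulin-like growth factors, was 140 and 0.547 TPM, Hmga2, a chromatin protein of growing cells, was 14.0 and 0.994 TPM, and the p53 target Cdkn1a was 203 and 38.1 TPM. Igfbp3 was higher in the Trp53 KO library, at 13.9 and 67.3 TPM, while the receptor Igf1r, which Grb10 restrains, was 15.8 and 18.9 TPM, a gene picked after its values were seen.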

How the data were processed

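RNA from 2 organoid samples, 1 control and 1 Trp53 knockout, was extracted with an RNeasy kit, made into strand-preserving libraries and sequenced as paired reads, per the labels' protocols. The authors deposited TPM for 25668 genes in each library, and GRCm39 is the genome build named per the submitters' processing notes. What aligned and counted the reads, with which strand setting and annotation, is not given in the sources used here.

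TPM keeps no depth. The TPM that 1 read is worth was fitted as the unit whose whole multiples best match TPM times GENCODE M21 transcript length over low values. At 1000 bases 1 read stood for 0.0168 TPM (control) or 0.0565 TPM (knockout). Read numbers were within 0.02 of whole in both libraries for 6218 of 24932 genes. They were so for 3 of the 25 measured imprinted genes (Zrsr1, Mcts2 and Igf2r), none of them called. The rest are estimates that assume the longest coding transcript. Counting intervals (95%) follow the exact Clopper-Pearson method applied to the estimated reads, and the floor is 3 reads in a library. Reads are not independent molecules.

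Differences used a pseudocount of 1, a mean TPM of at least 1 and a 2-fold threshold, in pandas 2.3.3 and scipy 1.17.1. The read unit and the 2-fold counts were tested on simulated reads with a known transcript length for each gene. That length is not known for the deposited values, so the simulation does not test the lengths assumed here. Neighbours, 5 on each side and those within a cluster, came from the RefSeq gene order of GRCm38.p6. The named genes are all members, Trp53 and up to 4 of each other list by size of difference, and others are marked. Members, lists and groups were chosen with earlier results of these data known. The alternatives were other pseudocounts, filters, scalings and thresholds, thinned reads and leaving out chromosome 2. A read floor in place of the pseudocount was added after the data were seen.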

Additional observations from a re-analysis of the deposited data

How the results depend on the processing

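The 11 imprinted genes called kept their direction under all alternatives in which they had a value, and 7 of them were at least 2-fold different under each. Of the 14 not called, 1 (Zrsr1) passed 2-fold under some alternative, and 11 kept their direction. Counts of members moved by over 1.5 times in these cases. With a pseudocount of 5, 1 member was higher, and 563 genes were higher and 930 lower in all. At a mean TPM of at least 5, 5 of 16 measured members and 1091 of 8451 genes in all were lower. The main filter left 25 members and 11228 genes. At a 4-fold threshold 0 members were higher and 4 lower, against 267 and 661 of all genes. The cause there is the stricter threshold. At the higher filter fewer genes were measured, and the share of all genes that were lower was 12.9%, beside 15.3% at the main filter. The cause at the higher filter and with the pseudocount of 5 was not tested. Quantile normalization moved the split of all genes to 1292 higher and 1321 lower and that of members to 3 and 7, with a median over all genes of 0.03, and rescaling by the median ratio gave 1191 and 1461, with members at 3 and 8. The median of the paternally expressed members changed sign to −0.00148 with no filter, to −5.03 at a mean TPM of at least 5, to −0.54 without mitochondrially encoded and the 100 highest genes, and to −0.0422 when the members on chromosome 2 were left out; the cause was not tested, and it rests on few genes. The thinned control reads gave 3 higher and 8 lower members, as did the values as deposited. No paired analysis was possible because each group holds 1 library and the result comes from no test.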
